A study of Mus musculus with 5 samples.

Results

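Genes for the enzymes that hydroxylate and cross-link collagen were followed in hearts of mouse embryos at stage E10.5. They are the collagen prolyl hydroxylase genes P4ha1, P4ha2, P4ha3 and P4hb, the lysyl hydroxylase genes Plod1, Plod2 and Plod3, and the lysyl oxidase genes Lox, Loxl1 and Loxl2. The members were found by gene symbol on the array, and all 10 were present, each with 1 probe set, among 23279 named genes. The series compares 3 arrays of hearts with the genotype label Control and 2 arrays of hearts labelled KO, and its title names LRRFIP2 and the response to hypoxia. The hearts had no treatment. Not given in the labels are the strain, the deleted part of the gene, any Cre driver, the alleles of the controls and the number of hearts in a sample. The p-values therefore measure only the spread between these 5 samples, which may be technical.

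Collagen is modified before it leaves the cell and again outside it. In the endoplasmic reticulum, an enzyme made of a catalytic alpha subunit (P4ha1, P4ha2 or P4ha3) and the disulfide isomerase P4hb hydroxylates prolines, which makes the collagen helix stable at body temperature. The lysyl hydroxylases of the Plod genes hydroxylate lysines. Both enzyme families use molecular oxygen, iron, oxoglutarate and ascorbate. Outside the cell the copper enzymes Lox, Loxl1 and Loxl2 oxidise lysines so that collagen and elastin chains become cross-linked. In other cell types several of these genes, P4ha1, P4ha2, Plod2 and Loxl2 among them, are known targets of the hypoxia-inducible factors (HIF), transcription factors that are stable when oxygen is low and bind DNA at the letters ACGTG or GCGTG. In the heart at this stage the matrix lies mainly in the cardiac jelly and the endocardial cushions.

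The promoters of the prolyl hydroxylase genes are shown because the alpha subunit genes differed in these arrays: P4ha1, P4ha2 and the partner P4hb had higher levels on both knockout arrays than on any control, and P4ha3 had levels that overlapped. Each window holds 250 bases before and 50 bases from the transcript start used in a RefSeq promoter table of build GRCm38.p6. For P4ha1 and P4ha3 the table's start lies inside the gene's outer boundary in the RefSeq gene table. The windows are P4ha1 at chr10:59323046-59323345 (plus strand), P4ha2 at chr11:54100674-54100973 (plus strand), P4hb at chr11:120573204-120573503 (minus strand) and P4ha3 at chr7:100285270-100285569 (plus strand). Sequences run 5′ to 3′ in the table's orientation, and capitals mark ACGTG or GCGTG on either strand, which read CACGT or CACGC on the opposite strand.
P4ha1: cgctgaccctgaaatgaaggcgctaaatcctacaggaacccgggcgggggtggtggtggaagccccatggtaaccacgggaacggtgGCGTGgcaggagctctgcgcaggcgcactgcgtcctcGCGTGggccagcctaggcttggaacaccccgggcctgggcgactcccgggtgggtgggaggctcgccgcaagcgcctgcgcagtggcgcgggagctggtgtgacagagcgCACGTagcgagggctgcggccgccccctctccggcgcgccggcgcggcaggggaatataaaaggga
P4ha2: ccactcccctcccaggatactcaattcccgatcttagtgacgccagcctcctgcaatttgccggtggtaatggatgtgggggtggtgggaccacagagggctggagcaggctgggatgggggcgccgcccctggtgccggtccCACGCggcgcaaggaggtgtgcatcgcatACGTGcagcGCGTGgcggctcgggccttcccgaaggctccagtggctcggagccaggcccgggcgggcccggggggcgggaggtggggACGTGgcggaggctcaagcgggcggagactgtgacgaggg
P4hb: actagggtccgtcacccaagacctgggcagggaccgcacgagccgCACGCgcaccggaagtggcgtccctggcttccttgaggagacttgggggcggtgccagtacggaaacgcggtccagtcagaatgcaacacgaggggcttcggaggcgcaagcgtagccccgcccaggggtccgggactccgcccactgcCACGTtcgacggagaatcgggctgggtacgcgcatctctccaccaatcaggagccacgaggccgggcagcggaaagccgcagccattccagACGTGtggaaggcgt
P4ha3: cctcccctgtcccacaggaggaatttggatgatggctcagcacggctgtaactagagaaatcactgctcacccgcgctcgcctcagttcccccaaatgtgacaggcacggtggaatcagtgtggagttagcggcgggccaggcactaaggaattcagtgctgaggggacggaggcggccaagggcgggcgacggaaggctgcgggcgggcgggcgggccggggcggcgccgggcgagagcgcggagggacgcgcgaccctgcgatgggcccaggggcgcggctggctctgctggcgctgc
The P4ha1 window held 3 such matches, with GCGTG 163 and 126 bases before the start and ACGTG on the opposite strand 16 bases before it. The P4ha2 window held 4, of which 2 were ACGTG, 1 of them at base 11 of the transcript. The P4hb window held 3 and the P4ha3 window 0. The windows of Plod1 and Plod3, whose groups overlapped on the arrays as those of P4ha3 did, held 2 and 4. At least 1 match was present in 43.8% of all 32851 promoters of this length in the table, and 3 or more in 8.93%. These shares were not matched for the content of G and C, which was 67% to 70.3% in the printed windows. Such a match is a description of the sequence and not a binding site. The other 4 members were not in the promoter table. Among them are Plod2 and Loxl2, which also had higher levels on both knockout arrays, so the match counts leave these out.

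Levels are log2 RMA values, so a difference of 1 is a doubling, and each difference is knockout minus control. The arrays had medians of 5.07 to 5.11, and each had high levels of cardiomyocyte genes, with a mean over 14 markers of 11.23 to 11.41. The targeted gene, Lrrfip2, was at 6.36 and 6.22 in the knockout arrays and at 7.33, 8.07 and 8.08 in the controls. The difference was -1.54 and the groups did not overlap, which is the direction that the labels Control and KO would give. Since the deleted part is not given, the probe set of Lrrfip2 may lie outside it. The level therefore does not show what was deleted. Knockout replicate 2 carried liver and gut endoderm transcripts, with a mean over 15 markers of 7.62 where the other arrays had 4.50 to 4.59. Knockout replicate 1 had a mean of 5.25 over 11 macrophage markers and the other arrays 4.61 to 4.73. These markers did not move together on that array. Tyrobp was at 7.65 there and 4.85 to 5.09 elsewhere. C1qa was lowest there, at 4.85, and Cd68 and C1qb lay within the range of the other arrays. The mean of 3 Y-linked genes was 7.02 in control replicate 1 and 2.72 to 2.99 elsewhere. Genes were tested with limma when their mean over the arrays reached 4.44, which kept 13967 genes and 9 of the 10 members. No gene passed an adjusted p of 0.05 in limma (0 genes, or 0%), and 1227, or 8.78%, had an unadjusted p under 0.05. So none of the differences below passed the threshold over all genes.

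Of the 10 members, 5 had higher levels in both knockout arrays than in any control: P4ha1, P4ha2, P4hb, Plod2 and Loxl2. Among all genes tested, 8.18% had no overlap with the knockout higher. The same 5 had an unadjusted p under 0.05 in limma, and 3.29% of genes tested had such a p with a higher level. None of the 9 tested members had such a p with a lower level, beside 5.49% of genes tested. The other 5 members overlapped between the groups: P4ha3, Plod1, Plod3, Lox and Loxl1. The median difference over the 9 tested members was 0.33, beside -0.02 over all genes tested. Over all 10 members, with the untested Lox, the median was 0.24. Only the lysyl and prolyl hydroxylase genes P4ha1, P4ha2 and Plod2 had differences above 1 among the members.

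**Figure D1:**
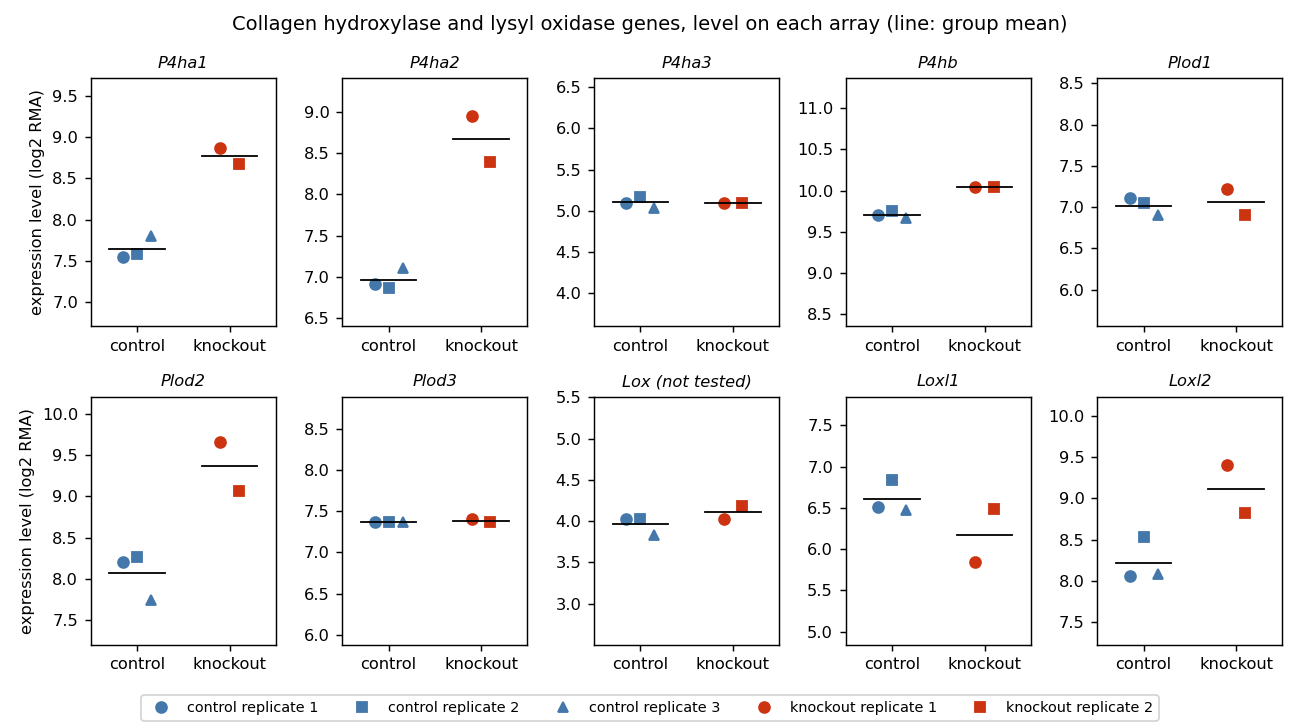
Expression level in log2 RMA units on each of the 5 arrays for the 10 members, with controls in blue, knockouts in red and a line at each group mean; every panel spans the same number of log2 units. P4ha1, P4ha2, P4hb, Plod2 and Loxl2 show knockout points above every control point, while the other 5 members overlap.

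P4ha2, a catalytic alpha subunit of collagen prolyl hydroxylase, had the largest difference of the members. Its level was 6.91, 6.86 and 7.11 in control replicates 1, 2 and 3 and 8.95 and 8.39 in knockout replicates 1 and 2. The groups were 1.28 apart at their nearest points, more than the range within either group. The log2 difference was 1.71 ± 0.20 (SE; 95% interval 1.15 to 2.27), a 3.27-fold higher level, with an unadjusted p of 0.00103 and an adjusted p of 0.332 in limma. Of the 13967 genes tested, 31 had a larger difference. Without knockout replicate 2 the difference was 1.99 and its adjusted p 0.0331 in limma, in a fit where 7.04% of all genes passed and the lone knockout array is assumed to vary like the controls. Without knockout replicate 1 it was 1.43.

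P4ha1, the more widely expressed alpha subunit, had the same pattern at a smaller size. Its level was 7.55, 7.58 and 7.80 in the controls and 8.87 and 8.67 in the knockouts. Both knockout arrays lay at least 0.86 above the highest control. The difference was 1.12 ± 0.11 (SE; 95% interval 0.81 to 1.44), or 2.18-fold, with an unadjusted p of 0.00057 and an adjusted p of 0.332 in limma.

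P4ha3, the alpha subunit with the narrowest known expression, had overlapping groups. Its level was 5.10, 5.17 and 5.04 in the controls and 5.10 in both knockout arrays. The 95% interval of its difference ran from -0.14 to 0.14. These values are close to the dim level of 4.44, and 3 of the 5 arrays share 1 exact value, so a change in few transcripts could be missed on this probe set.

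P4hb, the beta subunit, is also protein disulfide isomerase and serves many other secreted proteins. Its level was 9.71, 9.75 and 9.67 in the controls and 10.04 and 10.05 in the knockouts. The groups were separated by 0.29 although the difference was small, 0.33 ± 0.04 (SE; 95% interval 0.22 to 0.44), or 1.26-fold, with an unadjusted p of 0.00107 and an adjusted p of 0.332 in limma. A larger difference was found for 6.19% of genes tested, against 0.616% for P4ha1 and 0.222% for P4ha2.

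Among the lysyl hydroxylases, Plod2 was higher on both knockout arrays, and the groups overlapped for Plod1 and Plod3. Plod2 modifies the lysines at the ends of collagen chains. Its level was 8.20, 8.26 and 7.75 in the controls and 9.66 and 9.07 in the knockouts. Control replicate 3 was the lowest array and knockout replicate 1 the highest, and the groups were 0.81 apart. The difference was 1.30 ± 0.26 (SE; 95% interval 0.57 to 2.02), or 2.45-fold, with an unadjusted p of 0.00765 and an adjusted p of 0.372 in limma. It was 1.14 without control replicate 3 and 0.997 without knockout replicate 1.

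Plod1, which modifies lysines in the helical part of collagen, was at 7.11, 7.05 and 6.90 in the controls and at 7.22 and 6.90 in the knockouts. The knockout arrays lay on either side of the control mean, and the 95% interval of the difference was -0.30 to 0.39. Plod3, which also adds sugars to hydroxylysine, was at 7.37 in all 3 controls and at 7.40 and 7.37 in the knockouts. Since 4 of its 5 values are equal, its interval of -0.07 to 0.10 rests largely on the spread that limma borrows from other genes.

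The lysyl oxidase genes gave unequal differences. Loxl2, which acts on basement membrane collagen among other substrates, was at 8.06, 8.53 and 8.08 in the controls and at 9.40 and 8.82 in the knockouts. Knockout replicate 2 lay only 0.29 above control replicate 2, and the knockout arrays were further apart than that. The difference was 0.88 ± 0.25 (SE; 95% interval 0.18 to 1.59), or 1.85-fold, with an unadjusted p of 0.025 and an adjusted p of 0.496 in limma. It was 1.17 without knockout replicate 2 and 0.59 without knockout replicate 1. The unadjusted p in limma was 0.0831 without control replicate 1, 0.0869 without control replicate 3 and 0.126 without knockout replicate 1, and with all 5 arrays it was 0.0866 when the arrays were weighted by their spread.

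Loxl1, which is needed for elastic fibres, was the member with the lowest difference. Its level was 6.51, 6.84 and 6.47 in the controls and 5.85 and 6.49 in the knockouts. Only knockout replicate 1 was below the controls. The difference of -0.44 ± 0.25 (SE; 95% interval -1.12 to 0.24) had an unadjusted p of 0.15 in limma. It was -0.76 without knockout replicate 2 and -0.11 without knockout replicate 1.

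Lox, the founding member of the family, was under the dim level and was not tested. Its level was 4.03, 4.03 and 3.83 in the controls and 4.03 and 4.18 in the knockouts. When the filter was left out its difference was 0.14 with an unadjusted p of 0.209 in limma. At this signal neither a change nor its absence can be read from the array.

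**Figure D2:**
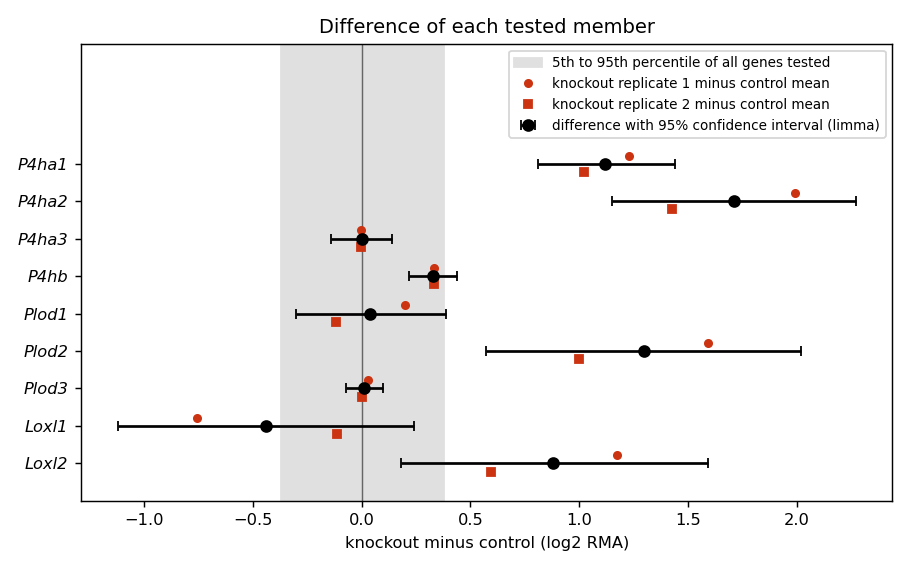
Knockout minus control in log2 RMA units for the 9 tested members, with the limma 95% confidence interval in black and each knockout array's distance from the control mean in red; the grey band spans the 5th to 95th percentile of all genes tested, -0.37 to 0.38. P4ha1, P4ha2, Plod2 and Loxl2 lie to the right of the band, P4hb inside its upper edge with an interval above 0, and Loxl1 to the left with an interval that spans 0.

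Knockout replicate 1 had the higher level of the pair for 4 of the 5 members with separate groups, and P4hb was equal to within 0.01. Knockout replicate 1, with the higher macrophage mean, had P4ha1 (1.23), P4ha2 (1.99), Plod2 (1.59) and Loxl2 (1.17) above the control mean. Its endoderm markers were near the control level. Knockout replicate 2, with the endoderm transcripts, had the same genes at 1.02, 1.43, 0.997 and 0.59 above that mean. Its macrophage markers were near the control level. The part of endoderm or macrophages in these values was not tested. Immediate early genes respond to handling of tissue. Over 13 genes their mean level was 6.77 and 6.62 in the knockouts and 6.19 to 6.39 in the controls. The genes were uneven, and Ier3 had the largest difference, 2.49. Of the 12 tested, 7 were higher without overlap, beside 8.18% of all genes tested, and 2 were lower. The part of these genes in the result was not tested. Endothelial genes were at a mean of 7.99 and 7.77 in the knockouts and 7.57 to 7.85 in the controls over 10 genes, so these means overlapped. Of the 9 tested, 3 were higher and 1 lower without overlap, beside 8.18% and 13.1% of all genes tested. Erythroid genes had a mean of 8.22 and 8.43 in the knockouts and 8.22 to 9.63 in the controls over 7 genes. All 7 were lower, 1 of them without overlap. The part of these cells in the result was not tested. In bulk tissue more cells of a type and more RNA per cell cannot be told apart.

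Comparing members within an array removes any scaling shared by its genes. The size of such a ratio also holds the brightness of each probe set, so only its difference between groups is read. Whether the probe sets respond equally to a change in transcripts is unknown, so that difference describes array signal and not the balance of subunits. The log2 ratio of P4ha1 to P4hb was 0.79 higher in the knockouts and that of P4ha2 to P4hb 1.38 higher, while that of P4ha3 to P4hb differed by -0.33. Thus P4ha1 and P4ha2 differed by more than the beta subunit, and P4ha2 to P4ha1 was 0.59 higher, at 0.08 and -0.28 in the knockouts and -0.65, -0.72 and -0.69 in the controls. Plod2 to Plod1 was 1.25 higher and Plod2 to Plod3 1.28 higher. Loxl2 to Loxl1 was 1.32 higher, at 3.55 and 2.33 in the knockouts and 1.55, 1.69 and 1.61 in the controls. It was 0.71 higher without knockout replicate 1 and 1.93 higher without knockout replicate 2. The groups did not overlap for any of these 7 ratios, but the ratios reuse the same members and are not separate evidence. That of P4ha3 to P4hb mostly restates P4hb, since P4ha3 hardly varied. Both ratios with Plod2 mostly restate its own difference of 1.30, since Plod1 (0.04) and Plod3 (0.01) differed little. How often ratios of other gene pairs lack overlap was not computed. The 2 ratios with Lox were computed but are not read here, since Lox was under the dim level. The two-sided exact permutation test over the 10 splits of the arrays gave p = 0.1 for each of the 7, also after adjustment over all 9 ratios computed, and this is the smallest value that the test can give here.

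**Figure D3:**
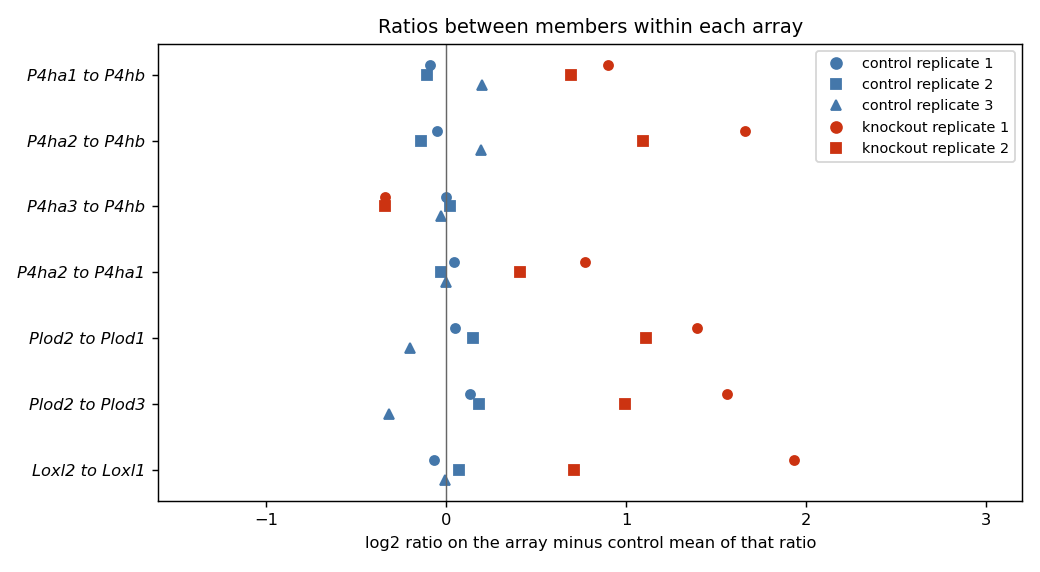
Log2 ratio between pairs of members on each array, minus the control mean of that ratio, with controls in blue and knockouts in red. The red points lie outside the range of the blue points in all 7 rows, to the left for P4ha3 to P4hb.

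The genes whose levels followed a member most closely were found by the root mean square distance between control-centred levels over the 5 arrays. For P4ha2 these were the keratin gene Krt19 (distance 0.126), the potassium channel subunit Kcne3 (0.202) and Ankrd37 (0.202). For Plod2 they were Prelid2 (0.124), the phosphofructokinase regulator Pfkfb3 (0.125) and the receptor kinase gene Kit (0.126). For P4ha1 they were the haem oxygenase gene Hmox1 (0.117), Trib3 (0.122) and the hexokinase gene Hk2 (0.126). With 5 arrays such closeness mostly reflects a like size of the difference between the groups.

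Further groups of collagen maturation genes were set beside the members. Over all genes tested, 8.78% had an unadjusted p under 0.05 in limma and 6104 of 13967 were higher. A list with a count near these shares does not stand out from the other genes. Of 10 other collagen-modifying enzymes, among them the prolyl hydroxylases that act at the other ring position, the collagen galactosyltransferases, Loxl3 and Loxl4, 0 had an unadjusted p under 0.05 in limma, and the median was 0.00. The cyclophilin gene Ppib was at 0.10, P3h3 at 0.12, Loxl3 at -0.12 and the cofactor gene Crtap at -0.28. Of 10 tested genes of procollagen folding and export, 1 had an unadjusted p under 0.05, the stress-sensing transcription factor gene Creb3l2 at 0.37 ± 0.09 (SE), with levels of 8.28 and 8.23 in the knockouts and 7.80 to 8.03 in the controls. The collagen chaperone Serpinh1 was at -0.07, Tmem38b at -0.39 and Creb3l1 at 0.23. Of 6 procollagen processing proteases, 0 had an unadjusted p under 0.05 and the median was -0.07, with Bmp1 at -0.23, Adamts3 at -0.14, Pcolce2 at 0.63 and Tll1 at 0.13. That median averages opposed arrays: it was -0.27 on knockout replicate 1 and 0.16 on knockout replicate 2, and 0 to 3 genes were higher with an array left out. Pcolce2 reached 6.90 in knockout replicate 2, whereas the other arrays had 4.68 to 5.27.

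**Figure D4:**
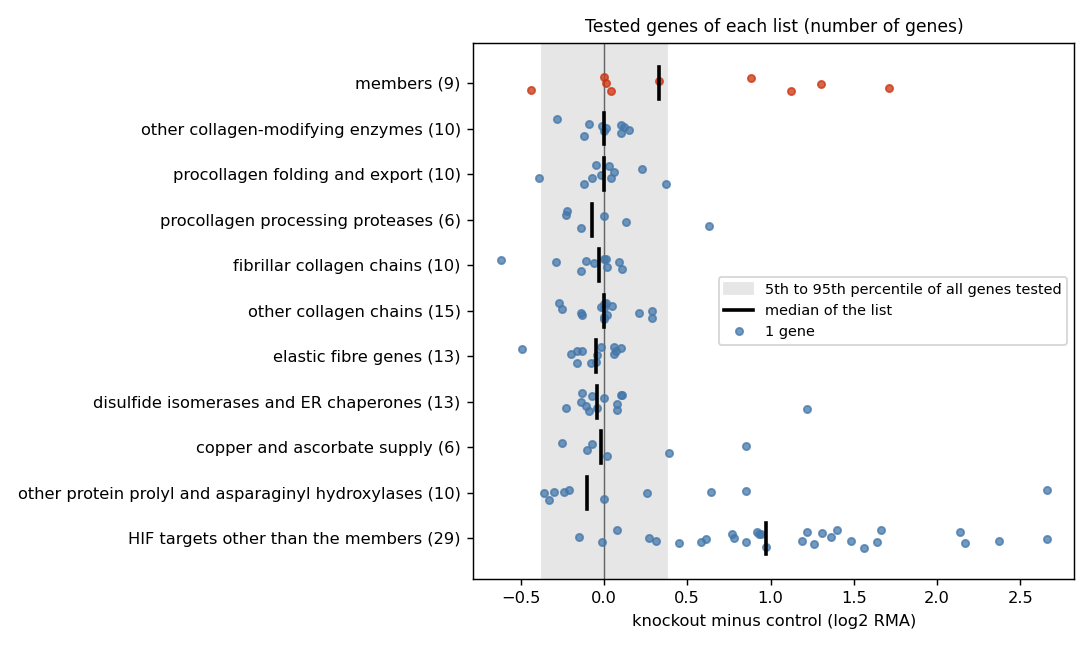
Knockout minus control in log2 RMA units for each tested gene of the members (red) and of 10 further lists (blue), with the list median as a black bar and the 5th to 95th percentile of all genes tested in grey. The members have a median of 0.33 over the 9 tested and the HIF targets 0.97, while the medians of the other 9 lists lie between -0.10 and 0.00 over both knockout arrays together.

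Among the collagen chains that these enzymes act on, the fibrillar genes differed between the knockout arrays. Their median over 10 tested genes was -0.39 on knockout replicate 1 and 0.12 on knockout replicate 2, which together gave -0.03, with 4 genes higher and 6 lower. The number higher was 2 without knockout replicate 2 and 8 without knockout replicate 1. Col2a1, the cartilage collagen that is also made in cushions, had a difference of -0.62 ± 0.13 (SE), with an unadjusted p of 0.00854 and an adjusted p of 0.394 in limma. Col5a1 was at -0.14, Col5a3 at 0.09 and Col11a1 at -0.29. The main chain of type I collagen, Col1a1, was at 5.62 and 7.90 in knockout replicates 1 and 2, outside the control range of 6.11 to 7.30 on both sides. The 13 other mesenchymal markers of cushion and fibroblast had a mean of 7.09 and 7.67 in the knockouts and 7.13 to 7.69 in the controls, and 11 of the 13 were lower in knockout replicate 1 than in knockout replicate 2. Loxl1 was also lower in knockout replicate 1, and P4ha1, P4ha2, Plod2 and Loxl2 were higher on both knockout arrays. The part of these cells in the value of any member was not tested. Of 15 other collagen chains 6 were higher, 6 lower and 3 equal, with a median of 0.00. Col6a1 was at 0.21 ± 0.04 (SE; unadjusted p of 0.00504 in limma), while Col13a1 (-0.27), Col18a1 (-0.25) and Col23a1 (-0.14) had an unadjusted p above 0.05.

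For elastic fibres, the other substrate of the lysyl oxidases, the median of 13 tested genes was -0.26 on knockout replicate 1 and 0.03 on knockout replicate 2. Over both it was -0.05, with 4 genes higher, and 3 to 8 were higher with an array left out. At an unadjusted p under 0.05 in limma there were 2, Emilin2 and Mfap5, both lower. Emilin2, an elastin-associated glycoprotein gene, was at 8.71 and 8.64 in the knockouts and 9.14, 9.18 and 9.18 in the controls. Its difference was -0.49 ± 0.04 (SE), with an unadjusted p of 2.88e-04 and an adjusted p of 0.332 in limma. Mfap5 was at -0.20 (unadjusted p of 0.0372 in limma), Fbn2 at -0.16 and Fbln5 at 0.10.

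P4hb was set beside its relatives among the disulfide isomerases and chaperones of the endoplasmic reticulum. Their median was -0.04, with 5 of 13 higher, and 1 had an unadjusted p under 0.05. This was Ero1a, the oxidase that reoxidises P4hb protein and is also listed as a HIF target, at 10.08 and 9.44 in the knockouts and 8.47 to 8.60 in the controls. Its difference was 1.22 ± 0.21 (SE), with an adjusted p of 0.355 in limma. The chaperones Hsp90b1 (0.10), Hspa5 (-0.14) and the isomerase Txndc5 (-0.23) differed by less than P4hb.

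Of 6 tested genes that supply copper to the lysyl oxidases or ascorbate to the hydroxylases, 3 were higher, and the median was -0.02. The copper pump gene Atp7b was at 7.11 and 6.83 in the knockouts and 6.05 to 6.17 in the controls, a difference of 0.85 ± 0.10 (SE) with an unadjusted p of 0.00113 and an adjusted p of 0.332 in limma. Its relative Atp7a, which loads the secreted lysyl oxidases with copper, was at 0.39 (unadjusted p of 0.0505 in limma). The copper chaperone gene Atox1 was lower on both knockout arrays, at 9.72 and 9.93 beside 10.03 to 10.13 in the controls. Its difference was -0.25 ± 0.08 (SE), with an unadjusted p of 0.0373 and an adjusted p of 0.541 in limma. Slc31a2 was at -0.07.

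Other hydroxylases of proteins, among them those that act on prolines or asparagines, were also compared. The median of 10 genes was -0.10, with 5 of them higher, and 3 had an unadjusted p under 0.05 in limma, all higher. These were the HIF prolyl hydroxylase genes Egln3 (2.66 ± 0.42, SE) and Egln1 (0.85 ± 0.07) and the arginine demethylase and lysyl hydroxylase gene Jmjd6 (0.64 ± 0.17). Hif1an, the asparaginyl hydroxylase of HIF, was at -0.24.

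HIF targets other than the members gave the context for size. Of 29 tested, 27 were higher, 25 without overlap. Among all 13967 genes tested 6104 were higher, and 8.18% were higher without overlap. The median of the list was 0.97, beside 1.12 for P4ha1, 1.71 for P4ha2, 1.30 for Plod2, 0.88 for Loxl2 and 0.33 for P4hb. At an unadjusted p under 0.05 in limma there were 22, all higher, beside 3.29% of all genes tested. Of the list, 0 passed the adjusted threshold. The smallest p-values belonged to the peptide gene Adm (1.48), Ndrg1 (2.37), Egln1 (0.85) and Ddit4 (1.40), an inhibitor of mTOR signalling. This list is not independent evidence about the members, since both were chosen with results of these samples known.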

How the data were processed

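Affymetrix arrays were run on 3 control and 2 knockout heart samples at E10.5. Per the labels' protocols, 20 ng of Trizol-extracted total RNA was amplified and biotin-labelled. The authors deposited log2 values, made with Affymetrix Expression Console and RMA per the submitters' processing notes; RMA corrects background, equalises the arrays' distributions and summarises probe sets. Their versions are not given, scanner values were not used, and precision is limited by the number of arrays. Of 24479 probe sets, 23281 had 1 gene symbol and 1198 none; 23156 were matched by Entrez number to a RefSeq table (GRCm38.p6) for current symbols. The brightest set of a gene was kept. Many values are exact ties: 54.8% of tested genes had equal values on at least 2 arrays.

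Genes with a mean under the 40th percentile were left out. With lmFit and eBayes, limma 3.58.1 in R 4.3.3 (two-sided, Benjamini-Hochberg over all genes tested) compared the groups without covariates, and the step was tested on simulated data. Ratios used an exact permutation test. Members, lists and alternatives were chosen with earlier results of these data known. Named genes are the members, Lrrfip2, the 4 smallest p-values of each pathway list, marker genes that stand apart, and the 3 genes nearest to each of 3 members; Col1a1 is a mesenchymal marker named for its range. Alternatives concerned the filter, variance prior, array weights, renormalization, centring, probe set averaging, the threshold and each array left out. Of the listed genes, 11 without a named probe set were not analysed here.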

Additional observations from a re-analysis of the deposited data

How the results depend on the processing

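Most alternative runs kept the members' levels or left out an array, which cannot make separate groups overlap. Only quantile normalization again and median centring changed the levels and could have done so. In these as in the other runs, the differences of P4ha1, P4ha2, P4hb, Plod2 and Loxl2 were positive, without overlap between the groups. With each array left out in turn they lay between 1.02 and 1.23 for P4ha1, 1.43 and 1.99 for P4ha2, 0.31 and 0.35 for P4hb, 0.997 and 1.59 for Plod2, and 0.59 and 1.17 for Loxl2. The count of genes with an adjusted p under 0.05 in limma then ran from 0 to 983; it was 9 without knockout replicate 1 and 983 without knockout replicate 2, where P4ha2 passed, and 0 in every fit on all 5 arrays, also at an adjusted p under 0.1. Differences near 0 turned sign: P4ha3 ran from -0.034 to 0.03 and Plod1 from -0.12 to 0.20 with an array left out, and Plod3 was -0.00300 after median centring. Loxl1 ran from -0.76 to -0.11, and after median centring, without control replicate 3 or without knockout replicate 2 its groups did not overlap. The number of tested members with higher levels and no overlap was 5, but 6 with quantile normalization again, which added Plod3, and 7 without knockout replicate 2, which added Plod1 and Plod3. Loxl2 had an unadjusted p of 0.0866 with array weights. The Loxl2 to Loxl1 ratio ran from 0.71 to 1.93 with an array left out. Counts of listed genes at an unadjusted p under 0.05 in limma then ran from 0 to 3 for the other collagen-modifying enzymes, 0 to 2 for folding and export, 0 to 2 for the proteases, 1 to 3 for fibrillar and 1 to 5 for other collagen chains, 1 to 5 for elastic fibre genes, 1 to 4 for disulfide isomerases, 1 to 2 for copper and ascorbate supply, 2 to 5 for other hydroxylases and 19 to 24 for HIF targets. The highest count came without knockout replicate 1 for folding and export and the proteases, and without knockout replicate 2 for the other lists (for copper and ascorbate supply also without control replicate 1). The number of tested members with a lower level was 2, and 1 to 3 with an array left out. With the filter at the 60th percentile it was 1 and the median of the tested members was 0.61 in place of 0.33, because that filter drops P4ha3. Each member has 1 probe set, so averaging sets changes no member. No paired analysis was possible because control and knockout samples share no number in the labels. Signal over background is unknown for each probe set, which limits Lox and P4ha3.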
